A study of Mus musculus with 4 samples.

Results

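The genes described here belong to enzyme families that add methyl or acetyl groups to histones or remove methyl groups from their lysines. They were chosen by gene symbol, as the genes on the array whose single annotated symbol starts with Kdm, Kmt, Ehmt, Suv39h, Suv420h or Prmt, or with Setd or Kat followed by a digit. This gave 53 of the 18193 genes on the array, measured by 143 probe sets, and where a gene had several, the brightest one by mean log2 signal was used. RNA was measured on 4 single-colour Affymetrix mouse arrays. The Chd4 RNAi group (n = 2 arrays) was the embryonic stem cell line Chd4i-1 given 5 ng/ml doxycycline for 3 days to induce RNAi against Chd4. The control group (n = 2 arrays) was the same line without doxycycline. Both groups were J1 cells with the inducible construct, grown on gelatin, with 15% serum and the self-renewal cytokine LIF in the medium. The submitters describe each pair of samples as biological duplicates. All arrays come from 1 RNAi line, and no doxycycline-treated line without the construct was analysed here, so effects of the drug, of RNAi as such and of Chd4 loss cannot be told apart.

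Histone modifying enzymes are often described as writers and erasers. Writers transfer a methyl group to lysine (KMT and SET domain proteins) or arginine (PRMT proteins), or an acetyl group to lysine (KAT proteins), and erasers of the KDM families take methyl groups off lysine. Methylation of lysine 4 of histone H3 (H3K4) marks promoters and enhancers in use, while methylation of H3K9 and H3K27 marks silenced chromatin. Chd4 powers nucleosome movement by the NuRD complex, which also removes acetyl groups from histones, and the H3K4 demethylase Kdm1a is known to associate with NuRD in embryonic stem cells.

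Chd4, the targeted gene, was lower in Chd4 RNAi cells at each of its 3 probe sets. At the probe set that represents the gene the signals were 1155 and 1480 in Chd4 RNAi cells, against 2215 and 1826 in control cells (65.0% of control, log2 difference -0.62 ± 0.12 SE, adjusted p = 0.00439 in limma, and 0.146 without the intensity trend). The other 2 probe sets gave 48.5% and 56.1% of control.

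The comparison asks which of these transcripts change when Chd4 is depleted. Of the 53 enzyme genes, 51 lay above the signal filter of 42.4 and were tested, and 10 changed at an adjusted p under 0.05. In bulk RNA fewer cells of a type and less RNA per cell cannot be told apart. Transcripts of the demethylases Kdm5b, Kdm3a and Kdm1a, the H3K4 methyltransferase Kmt2c, the arginine methyltransferase Prmt2 and the acetyltransferase Kat7 rose. Transcripts of the acetyltransferase Kat6b, the demethylase Kdm4c and the arginine methyltransferases Prmt6 and Prmt8 fell. Differences are log2 signal in Chd4 RNAi minus control cells, tested in limma with Benjamini-Hochberg adjustment over all 12615 genes tested.

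The share of enzyme genes that passed, 10 of 51 or 19.6%, was near that of all genes tested, 20.5%. The same held by direction, with 6 higher (11.8%) against 11.7% of all genes, and 4 lower (7.84%) against 8.81%. Chd4 RNAi and control signals did not overlap for 36 enzyme genes (70.6%) and for 60.6% of all genes tested. The median log2 difference was -0.041 over the enzyme genes and 0.014 over all genes tested, with quartiles of -0.14 to 0.16 and -0.19 to 0.23. Most differences were small: 1 enzyme gene, Prmt8, differed by at least 1.5-fold, as did 14.8% of all genes tested. In the top 40% of probe sets by signal, a cut that leaves out Prmt8, it was 0 of 50 enzyme genes and 9.22% of all genes. The calls rest on a variance model in which the spread follows the signal. Without that intensity trend limma called 0 of the 51 enzyme genes (9 at an unadjusted p under 0.05), with adjusted p values of 0.0565 to 0.223 for the 10 genes, and 3.34% of all genes. With the mean over a gene's probe sets 4 enzyme genes passed, of which 3 were among the 10 (Kdm3a, Kdm4c and Prmt8), and against a 1.2-fold change 0 passed (3 at an unadjusted p under 0.05). With Chd4 RNAi replicate 1 left out, 6 enzyme genes passed, of which 5 were among the 10.

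**Figure D1:**
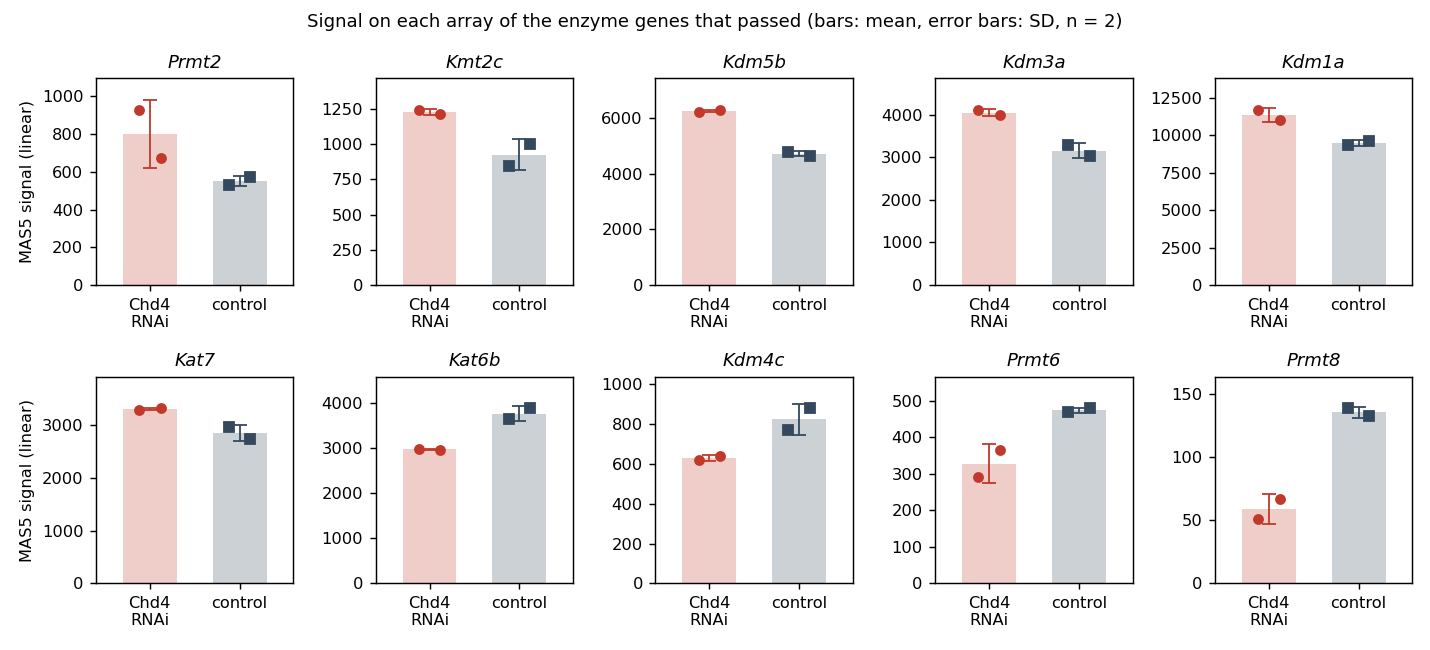
MAS5 signal on a linear axis for the 10 enzyme genes that passed, with 2 Chd4 RNAi arrays (red circles) left of 2 control arrays (grey squares) in each panel, bars at the mean and error bars of 1 SD. In every panel the 2 groups do not overlap, and Prmt8 has the lowest Chd4 RNAi signal relative to control.

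Among the erasers of H3K4 methylation, 2 of 5 tested genes rose and 0 fell in limma, and the 3 others had log2 differences of -0.15 to 0.21. Of all genes tested 11.7% rose and 8.81% fell, and a group of 5 is too small to compare with these shares. Kdm5b, which removes di- and trimethylation from H3K4, had signals of 6221 and 6281 in Chd4 RNAi cells, against 4774 and 4646 in control cells. Both Chd4 RNAi arrays lay above both control arrays by far more than replicates differed. Kdm5b was 1.33-fold higher (log2 difference 0.41 ± 0.054 SE, adjusted p = 0.000421), the smallest p among the enzyme genes. Kdm1a, the flavin-dependent demethylase also called LSD1, had 11675 and 11015 in Chd4 RNAi cells, against 9347 and 9608 in control cells. The means were 11345 ± 467 in Chd4 RNAi cells and 9478 ± 185 in control cells (SD, n = 2 each), and the groups did not overlap. The log2 difference was 0.26 ± 0.051 SE (adjusted p = 0.00460), but only 0.019 at the second probe set of Kdm1a. The smallest p among the 3 that did not pass belonged to Kdm5a, a close relative of Kdm5b, at a log2 difference of 0.21 (adjusted p = 0.0873).

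Among the writers of H3K4 methylation 1 of 8 tested genes rose and 0 fell, with a median log2 difference of 0.014. Kmt2c, a large methyltransferase of enhancers also called MLL3, had signals of 1241 and 1209 in Chd4 RNAi cells, against 847 and 1003 in control cells. The control arrays differed more from each other than the Chd4 RNAi arrays did. Kmt2c was 1.33-fold higher (log2 0.41 ± 0.10 SE, adjusted p = 0.0138), and without control replicate 1 the call ended (0.29, adjusted p = 0.104). The 7 others, which include Kmt2a, Kmt2b, Kmt2d, Setd1a and Setd1b of the same COMPASS-like complexes, had log2 differences of -0.30 to 0.18. The lowest of these was Kmt2e, a SET domain protein not known to methylate H3K4 itself (-0.30, adjusted p = 0.0874), and it passed without control replicate 1 (-0.45, adjusted p = 0.0250). Setd1a passed without control replicate 2 (0.49, adjusted p = 0.0356), against 0.17 with all arrays.

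Erasers of H3K9 and H3K36 methylation gave 1 rise and 1 fall among 9 tested genes. Kdm3a, an H3K9 demethylase, had signals of 4110 and 3987 in Chd4 RNAi cells, against 3279 and 3035 in control cells. Both Chd4 RNAi arrays were higher, and the difference was 1.28-fold (log2 0.36 ± 0.064 SE, adjusted p = 0.00268). Kdm4c, which acts on H3K9 and H3K36, had 620 and 641 in Chd4 RNAi cells, against 768 and 878 in control cells. It was 1.30-fold lower (-0.38 ± 0.11, adjusted p = 0.0281). That call ended without Chd4 RNAi replicate 1 (-0.36, adjusted p = 0.0834), without Chd4 RNAi replicate 2 (-0.41, adjusted p = 0.0521) or without control replicate 2 (-0.28, adjusted p = 0.204). The others ran from Kdm4b at -0.37 (adjusted p = 0.226) to Kdm2a at 0.40 (adjusted p = 0.0752). Kdm2b, an H3K36 demethylase that also recruits Polycomb complexes to CpG islands, had 2655 and 2594 in Chd4 RNAi cells, against 2877 and 2669 in control cells (log2 -0.078, 95% interval -0.23 to 0.070).

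The genes for H3K9 and H4K20 methyltransferases did not pass. The 3 tested H3K9 methyltransferases had log2 differences of -0.11 for Suv39h2, 0.081 for Ehmt2 (G9a) and 0.30 for Ehmt1 (its partner GLP), with adjusted p values of 0.0945 or more. The 3 H4K20 methyltransferases lay between -0.21 for Kmt5c and 0.30 for Kmt5b (adjusted p of 0.168 or more). Kmt5a, the monomethylase of this group, had signals of 2929 and 2619 in Chd4 RNAi cells, against 2561 and 2418 in control cells (0.15, 95% interval -0.0092 to 0.32). The H3K27 demethylases Kdm6a and Kdm6b had log2 differences of -0.018 and -0.22, and the H3K36 trimethylase Setd2 had -0.14. None of these 9 genes passed, at adjusted p values of 0.0945 or more in limma. Ehmt1 passed without control replicate 2 (0.50, adjusted p = 0.00763), with signals of 1310 and 1302 in Chd4 RNAi cells, against 925 and 1216 in control cells. The 4 other SET domain genes, Setd3, Setd4, Setd5 and Setd6, ranged from -0.22 to 0.19. Setd5 passed without Chd4 RNAi replicate 1 (-0.30, adjusted p = 0.0381) and Setd3 without Chd4 RNAi replicate 2 (-0.32, adjusted p = 0.0439). Setd6, which methylates the NF-kappaB subunit RelA, had 2413 and 2470 in Chd4 RNAi cells, against 2392 and 2296 in control cells (0.059, 95% interval -0.088 to 0.21).

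The arginine methyltransferases held the widest range, with 1 higher and 2 lower of 8 tested and a median log2 difference of -0.12. Prmt8, a membrane-anchored enzyme best known from neurons, had signals of 50.7 and 67.0 in Chd4 RNAi cells, against 138 and 132 in control cells. Both Chd4 RNAi signals lay under the median signal of all probe sets, 76.0, so its fall is given as at least 1.78-fold, with signals under that median set to it. This bound is not a confidence limit. The fitted log2 difference was -1.21 ± 0.32 SE (adjusted p = 0.0195), and the call ended without Chd4 RNAi replicate 1 (-1.01, adjusted p = 0.0604), control replicate 1 (-1.18, adjusted p = 0.0929) or control replicate 2 (-1.25, adjusted p = 0.0747).

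Prmt6, which methylates arginine 2 of H3 and so opposes H3K4 methylation, had signals of 291 and 365 in Chd4 RNAi cells, against 469 and 480 in control cells. It was 1.46-fold lower (log2 -0.54 ± 0.15 SE, adjusted p = 0.0239), and the Chd4 RNAi arrays differed more from each other than the control arrays did. Without Chd4 RNAi replicate 1 the call ended (-0.38, adjusted p = 0.130), as it did without control replicate 1 (-0.56, adjusted p = 0.0685) or control replicate 2 (-0.53, adjusted p = 0.0920). Prmt2, a coactivator of nuclear receptors, had 927 and 672 in Chd4 RNAi cells, against 533 and 572 in control cells. It was 1.43-fold higher (0.52 ± 0.14, adjusted p = 0.0269), carried mostly by Chd4 RNAi replicate 1. Without that array the difference was 0.28 (adjusted p = 0.197), and the call also ended without control replicate 1 (0.46, adjusted p = 0.0778).

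The arginine methyltransferases of general use differed little. Prmt1, the main source of asymmetric dimethylarginine, had signals of 9491 and 9228 in Chd4 RNAi cells, against 10349 and 10067 in control cells. The groups did not overlap, but the difference did not pass (log2 -0.13 ± 0.049 SE, adjusted p = 0.0956), except under quantile normalization (-0.16, adjusted p = 0.0352). Prmt5, the main source of symmetric dimethylarginine and needed in early embryos, had 4283 and 4089 in Chd4 RNAi cells, against 4188 and 4155 in control cells. Its groups overlapped, and the 95% interval of the log2 difference was -0.12 to 0.13. Prmt7, a monomethylase, had 3547 and 3672 in Chd4 RNAi cells, against 3853 and 3935 in control cells (95% interval -0.24 to 0.021). Prmt3, which methylates a ribosomal protein, had 2389 and 2336 in Chd4 RNAi cells, against 2738 and 2416 in control cells (95% interval -0.29 to 0.043).

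Among the lysine acetyltransferases 1 of 8 tested genes rose and 1 fell, both of the MYST family. Kat6b, which acetylates H3K23 within complexes built on Brpf1, had signals of 2975 and 2964 in Chd4 RNAi cells, against 3642 and 3878 in control cells. Both Chd4 RNAi arrays were lower and nearly equal. The difference was 1.26-fold (log2 -0.34 ± 0.063 SE, adjusted p = 0.00334), and it held at this probe set with each array left out. When the dim probe sets of Kat6b were averaged in, the sign turned (0.37, adjusted p = 0.481). Kat7, also called HBO1, had 3293 and 3319 in Chd4 RNAi cells, against 2965 and 2741 in control cells. Kat7 was 1.16-fold higher (0.21 ± 0.066, adjusted p = 0.0403), close to the threshold. Its 2 other tested probe sets had log2 differences of -0.23 and 0.22. It did not pass in limma with its probe sets averaged (0.071, adjusted p = 0.732) or without the signal filter (adjusted p = 0.0597). The call of Kat7 ended without Chd4 RNAi replicate 1 (0.22, adjusted p = 0.0864), without Chd4 RNAi replicate 2 (0.21, adjusted p = 0.103), without control replicate 2 (0.16, adjusted p = 0.238) and with the replicate block (0.21, adjusted p = 0.0599).

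The 6 other acetyltransferases lay within -0.098 and 0.058 on the log2 scale, with adjusted p values of 0.542 or more. They are Kat2a and Kat2b of the SAGA and ATAC coactivators, Kat14 of ATAC, Kat5 (Tip60), Kat6a and Kat8 (MOF). Kat14 had a log2 difference of 0.058 at its brightest probe set and passed when its probe sets were averaged (0.94, adjusted p = 0.0128). A further tested probe set of Kat14 had 0.17 and did not pass, and the mean also takes in a probe set under the signal filter. Kat2b had signals of 2646 and 2464 in Chd4 RNAi cells, against 2467 and 2551 in control cells, and its groups overlapped (95% interval -0.13 to 0.18).

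Counted by family, 3 of 16 tested demethylases rose and 1 fell, and 1 of 19 KMT and SET domain genes rose. Of 8 arginine methyltransferases 1 rose and 2 fell, and of 8 acetyltransferases 1 rose and 1 fell. The share that passed was not compared between these small groups. For 37 of the 41 tested genes that did not pass, the 95% interval of the log2 difference lay within a 1.5-fold change either way. The exceptions were Kdm2a, Kdm4b, Kdm8 and Kmt5b, and a miss of the threshold does not show that a gene was unchanged. The 2 genes not tested were Kdm4d, with signals of 33.3 and 48.1 in Chd4 RNAi cells and 30.4 and 46.6 in control cells, and Kdm5d, the Y-linked member of its family, with 11.1 and 46.5 in Chd4 RNAi cells and 43.2 and 27.1 in control cells.

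**Figure D2:**
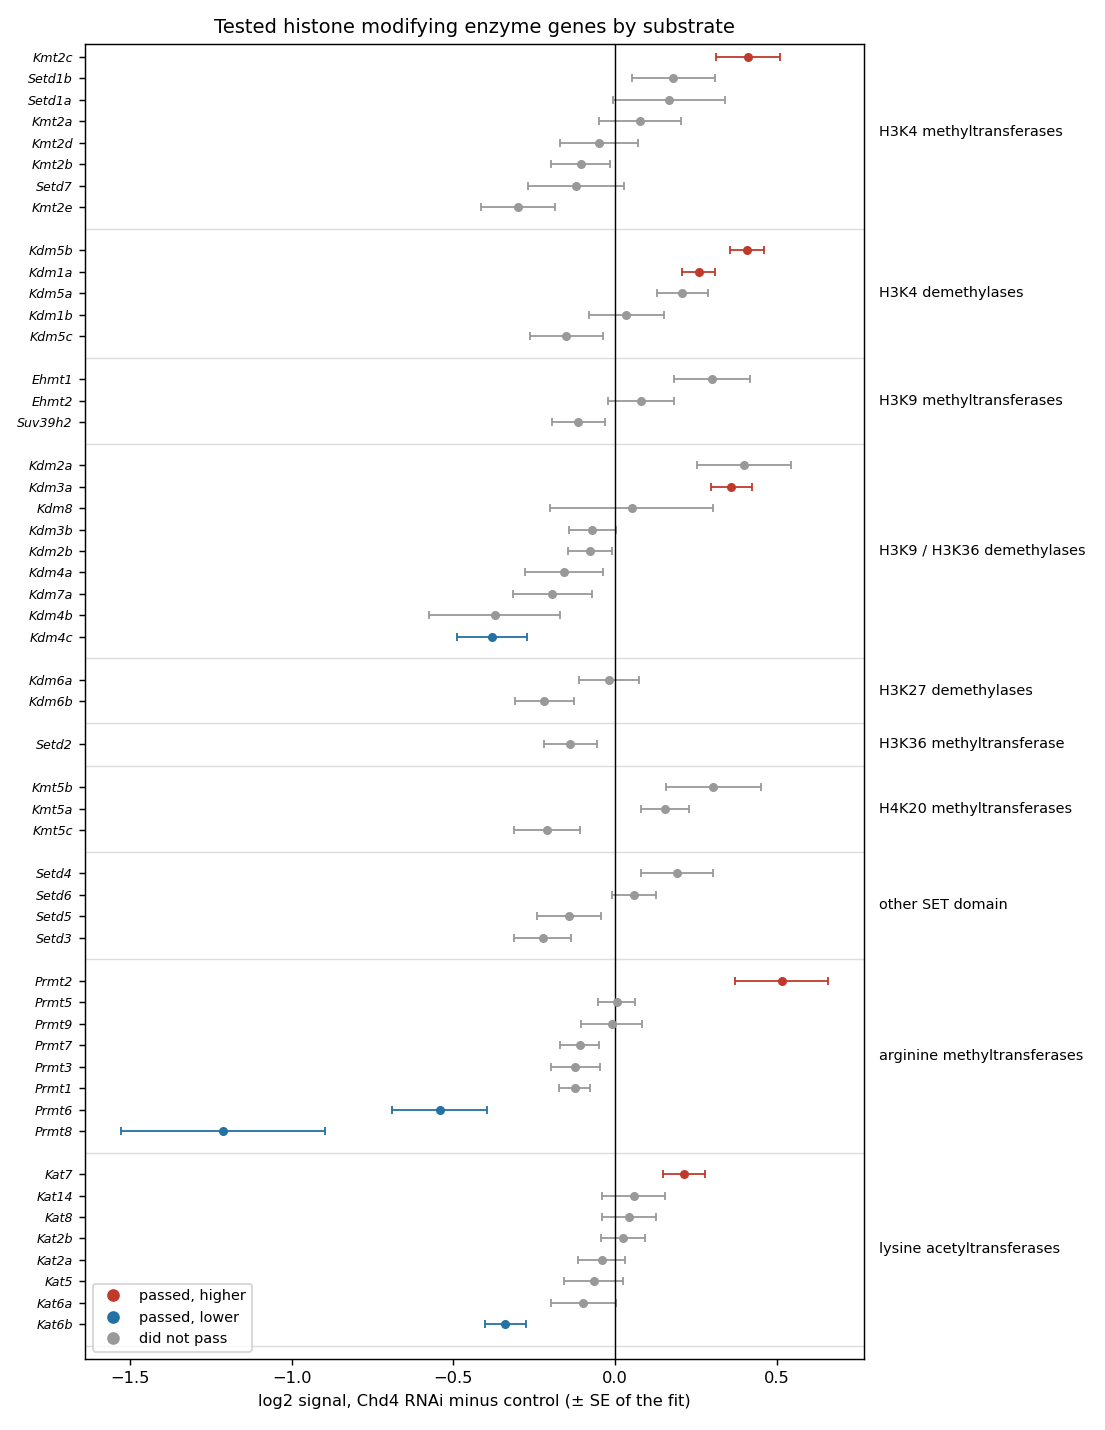
Log2 signal in Chd4 RNAi minus control cells (points, with bars of 1 SE from the fit) for the 51 tested enzyme genes. Genes are grouped by substrate or enzyme family, with those that passed as higher in red, as lower in blue and others in grey. The 6 red and 4 blue points are spread over 5 of the 10 groups, and apart from Prmt8 at -1.21 all points lie between -0.54 and 0.52.

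Several probe sets of a gene read different stretches of its transcripts. Of the 51 tested genes, 34 had at least 1 further tested probe set, 64 in all, and 46 of these (71.9%) had the sign of the brightest one. Among the 10 genes that passed, 7 had further probe sets, and 10 of those 12 had the same sign. None of the 12 passed in the fit over the 27022 probe sets above the filter, in which 14.2% passed. The second probe set of Kdm1a had 4168 and 4190 in Chd4 RNAi cells, against 4113 and 4139 in control cells (log2 0.019 ± 0.058 SE), so its rise was seen at 1 of its 2 probe sets. The second probe set of Prmt2 had 605 and 563 in Chd4 RNAi cells, against 420 and 466 in control cells (0.40 ± 0.12, adjusted p = 0.0525). The 3 other probe sets of Kdm5b had differences of 0.13 to 0.35, and those of Kmt2c of 0.053 to 0.23.

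Of the 64 further probe sets 3 passed (4.69%), a smaller share than the 14.2% of all probe sets tested. Each was of a gene whose brightest probe set did not pass, and these are named after their values were seen. At 1 of them Kdm7a, a demethylase of H3K9 and H3K27, had 174 and 195 in Chd4 RNAi cells, against 295 and 334 in control cells (log2 -0.77 ± 0.18 SE, adjusted p = 0.0139). At its brightest probe set the difference had the same sign but was smaller (-0.19). A further probe set of Kdm2a had 196 and 108 in Chd4 RNAi cells, against 240 and 421 in control cells (-1.13 ± 0.31, adjusted p = 0.0311), whereas its brightest probe set pointed up (0.40). A further probe set of Suv39h2 had 289 and 284 in Chd4 RNAi cells, against 208 and 159 in control cells (0.66 ± 0.19, adjusted p = 0.0419), whereas its brightest probe set was at -0.11. Probe sets of Kdm2a and of Suv39h2 thus differed in sign, and no gene had probe sets that passed in opposite directions.

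**Figure D3:**
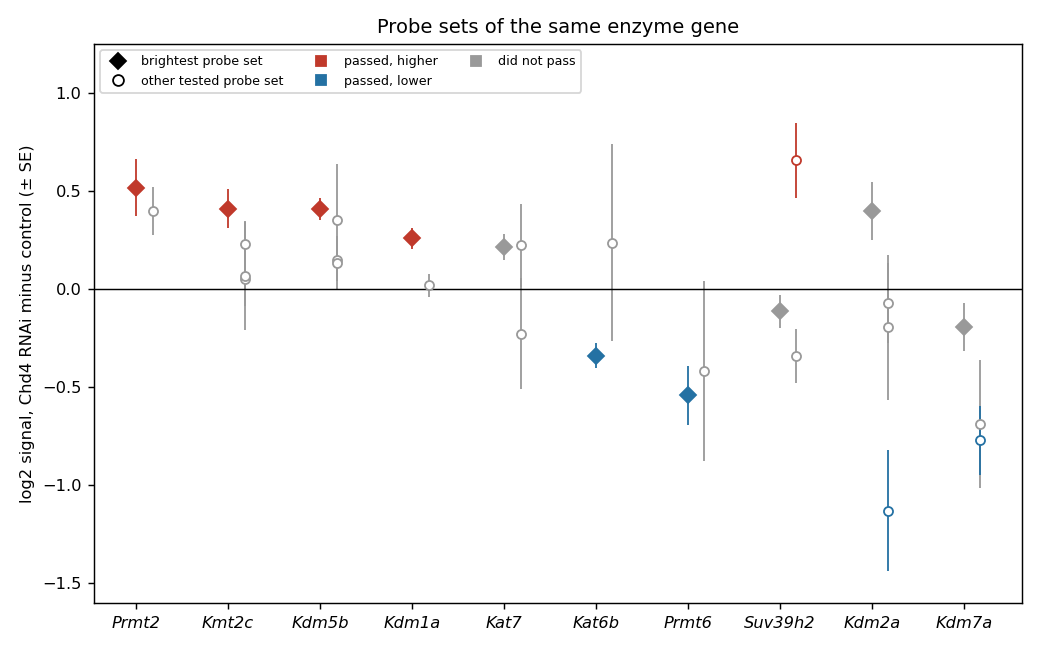
Log2 signal in Chd4 RNAi minus control cells at each tested probe set (bars of 1 SE) for the genes that passed and had more than 1 tested probe set, and for Suv39h2, Kdm2a and Kdm7a, with the brightest probe set as a filled diamond and the others as open circles. Colours show calls in the fit over probe sets, where Kat7 had an adjusted p of 0.0570. The open circles of Kdm5b, Kmt2c and Prmt2 share the sign of the diamond, and those of Kdm2a lie below 0 while its diamond lies at 0.40.

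The promoters of the enzyme genes are described because the genes that passed moved in both directions. Sequences from 250 bases before to 50 bases after each start were taken from RefSeq (GRCm38.p6), in which 44 of the 53 genes had 60 windows. Windows are shown for the 2 genes with the smallest p in each direction, at the first start listed, on the strand of the gene and with CG dinucleotides in capitals. Kdm5b (chr1:134559928-134560227, + strand) and Kdm3a (chr6:71632868-71633167, - strand) rose, and Kat6b (chr14:21499520-21499819, + strand) and Prmt8 (chr6:127769106-127769405, - strand) fell.
Kdm5b: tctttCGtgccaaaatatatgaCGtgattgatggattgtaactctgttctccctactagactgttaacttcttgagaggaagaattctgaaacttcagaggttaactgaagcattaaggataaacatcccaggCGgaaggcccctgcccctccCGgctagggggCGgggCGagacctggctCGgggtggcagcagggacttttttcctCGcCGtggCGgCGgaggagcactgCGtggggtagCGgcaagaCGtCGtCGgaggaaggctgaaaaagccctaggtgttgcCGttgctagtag
Kdm3a: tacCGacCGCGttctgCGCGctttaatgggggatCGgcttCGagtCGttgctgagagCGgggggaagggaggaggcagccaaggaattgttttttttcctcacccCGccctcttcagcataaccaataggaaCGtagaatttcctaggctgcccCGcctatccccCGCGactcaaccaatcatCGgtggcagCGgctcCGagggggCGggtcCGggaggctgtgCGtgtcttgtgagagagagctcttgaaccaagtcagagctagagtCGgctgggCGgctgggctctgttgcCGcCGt
Kat6b: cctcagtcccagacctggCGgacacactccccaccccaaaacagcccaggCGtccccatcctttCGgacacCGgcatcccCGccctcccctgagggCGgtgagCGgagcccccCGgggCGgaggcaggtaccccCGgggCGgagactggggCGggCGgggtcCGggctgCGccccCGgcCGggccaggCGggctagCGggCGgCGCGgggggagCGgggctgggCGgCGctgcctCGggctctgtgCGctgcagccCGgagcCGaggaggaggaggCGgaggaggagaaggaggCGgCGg
Prmt8: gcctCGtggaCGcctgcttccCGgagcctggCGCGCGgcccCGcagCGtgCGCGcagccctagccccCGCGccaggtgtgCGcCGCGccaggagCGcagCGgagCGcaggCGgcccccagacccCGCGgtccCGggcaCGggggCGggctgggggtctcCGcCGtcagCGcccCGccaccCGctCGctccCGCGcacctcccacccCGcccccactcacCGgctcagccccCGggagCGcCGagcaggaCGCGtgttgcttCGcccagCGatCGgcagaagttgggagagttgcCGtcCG

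These 4 windows hold 17, 24, 32 and 44 CG dinucleotides in the order shown. The median was 25 over the 60 windows of the enzyme genes, 20 over the 13035 windows of all genes tested and 7 over all 32851 windows in the table. By call, the median was 22 over 8 windows of 6 genes that rose and 32 over 7 windows of 4 genes that fell. It was 26 over 43 windows of 32 genes that did not pass. Windows of 1 gene are not independent: of the genes that fell, Kat6b had windows with 32 and 34 and Prmt8 with 43 and 44, whereas Prmt6 had 16. Whether CG content goes with direction was not tested. A window of Kdm3a, which rose, and a window of Kdm4c, which fell, held 0 CG. The GC box GGGCGG, searched on both strands and itself holding a CG, was found in 66.7% of the enzyme windows, against 61.6% of the windows of genes tested, and in all 4 windows shown. The CCAAT box (CCAAT, both strands) was found in 40% of the enzyme windows, against 37.4% of the windows of genes tested, and among those shown in Kdm3a. The TATA box (TATAAA, both strands) was found in 3.33% of the enzyme windows, against 7.41% of the windows of genes tested, and in none of the 4. A match is a run of letters and not a bound site, and no binding or chromatin was measured here.

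The enzymes work within complexes, and lists of related genes that the symbol rule leaves out are described by the same counts. Of 127 tested related genes 13 rose and 11 fell, or 18.9%, against 20.5% of all genes, with a median log2 difference of 0.041. In the COMPASS list, whose proteins carry the H3K4 methyltransferases, 3 of 13 tested genes rose and 3 fell. Wdr82, a subunit of the Setd1a and Setd1b complexes, was 1.26-fold higher (adjusted p = 0.00627) and the subunit gene Ash2l 1.16-fold higher (adjusted p = 0.0137). Rbbp5, another subunit gene, was 1.30-fold lower (log2 -0.38 ± 0.12 SE, adjusted p = 0.0408). Its signals were 2279 and 3140 in Chd4 RNAi cells, against 3395 and 3558 in control cells, so replicate 1 of Chd4 RNAi carried most of this fall. Ncoa6, found in the Kmt2c and Kmt2d complexes, was 1.41-fold lower (adjusted p = 0.00667). The rise of Ash2l was lost without Chd4 RNAi replicate 1 (log2 0.15, adjusted p = 0.0855) or control replicate 2 (0.21, adjusted p = 0.0532).

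Among 7 tested partners of Kdm1a 1 rose and 1 fell. Rcor2, a CoREST scaffold gene of embryonic stem cells, had signals of 876 and 786 in Chd4 RNAi cells, against 551 and 579 in control cells (1.47-fold higher, adjusted p = 0.00423). Rcor1 and Rcor3 did not pass, with log2 differences of -0.24 (adjusted p = 0.115) and 0.081 (adjusted p = 0.792). Kdm1a passed at its brightest probe set, but not with its probe sets averaged (log2 0.14, adjusted p = 0.0835). Phf21a, a reader of unmethylated H3K4, was 1.28-fold lower (adjusted p = 0.0434), a call lost without Chd4 RNAi replicate 1 (log2 -0.26, adjusted p = 0.190) or control replicate 2 (-0.26, adjusted p = 0.253).

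In the list of acetyltransferases outside the KAT symbols 2 of 20 tested genes rose and 0 fell in limma, with a median log2 difference of 0.14. Crebbp, the coactivator CBP, had signals of 1754 and 1724 in Chd4 RNAi cells, against 1175 and 1304 in control cells. It was 1.40-fold higher (log2 0.49 ± 0.082 SE, adjusted p = 0.00194), with a smaller difference when its probe sets were averaged (0.19, adjusted p = 0.371). Its paralogue Ep300 had 1282 and 1376 in Chd4 RNAi cells, against 1055 and 1113 in control cells. Ep300 was 1.23-fold higher (0.29 ± 0.086, adjusted p = 0.0323), which ended without Chd4 RNAi replicate 2 (0.24, adjusted p = 0.138), control replicate 1 (0.26, adjusted p = 0.147) or control replicate 2 (0.33, adjusted p = 0.0606).

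The list of MYST acetyltransferase partners gave 3 rises and 3 falls among 27 tested genes. Among the falls it counts Ing1, which is better known from a deacetylase complex. Brpf3, a scaffold of Kat6 and Kat7 complexes, had signals of 406 and 362 in Chd4 RNAi cells, against 197 and 178 in control cells. At 2.05-fold higher (adjusted p = 0.00142) it was the largest change among the related genes that passed. Ing1, a reader of methylated H3K4 best known from the Sin3 deacetylase complex, fell to 66.5% of control (adjusted p = 0.000119), with 1999 and 1987 in Chd4 RNAi cells, against 3009 and 2988 in control cells. Phf20, which works with Kat8, was 1.33-fold lower (adjusted p = 0.00252).

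In the SAGA and ATAC list 2 of 18 tested genes rose and 1 fell. The ATAC subunit gene Mbip was 1.40-fold higher (adjusted p = 0.00305). Usp22, the SAGA deubiquitinase gene, was 1.19-fold higher (adjusted p = 0.0287) and the SAGA subunit gene Tada1 1.26-fold lower (adjusted p = 0.0434). The call of Usp22 ended without Chd4 RNAi replicate 1 (log2 0.18, adjusted p = 0.156), control replicate 1 (0.26, adjusted p = 0.0669) or control replicate 2 (0.23, adjusted p = 0.106), and that of Tada1 with any array left out (-0.39 to -0.28, adjusted p = 0.0715 to 0.221).

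Of 20 other methyltransferase genes 2 rose and 1 fell. Smyd3, a SET and MYND domain enzyme, was 1.35-fold higher (adjusted p = 0.00670). Carm1, the arginine methyltransferase also called PRMT4, rose to 118% of control (adjusted p = 0.0379), a call lost with any array left out (log2 0.21 to 0.26, adjusted p = 0.0675 to 0.138). Ndufaf7, which fell 1.66-fold (adjusted p = 0.000706), acts on a mitochondrial protein and not on histones. Jmjd1c, of the Kdm3 family, was the only 1 of 13 tested JmjC genes to pass, at 1.26-fold lower (adjusted p = 0.00333). Of 10 tested PRMT partners Tdrkh, a reader of methylarginine on Piwi proteins, was the only one to pass, at 1.76-fold lower (adjusted p = 0.00622). Of the 18 related genes named for the smallest p in their list, 11 kept their call when probe sets were averaged. The call ended for Ash2l, Phf21a, Crebbp, Usp22, Tada1, Smyd3 and Jmjd1c. Without the intensity trend Brpf3 alone passed, so 17 calls ended. With signals floored at the median 17 also ended, Brpf3's among them (adjusted p = 0.0538), and Ing1 alone passed (adjusted p = 0.0207). None of the 18 genes therefore passed under both settings. All 18 had signals above this floor of 76.0 on every array, so their log2 differences stayed the same (Carm1 0.23, Brpf3 1.03). The floor reached their calls only through the variance model and the adjustment over all genes, and does not test the signals of these genes.

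**Figure D4:**
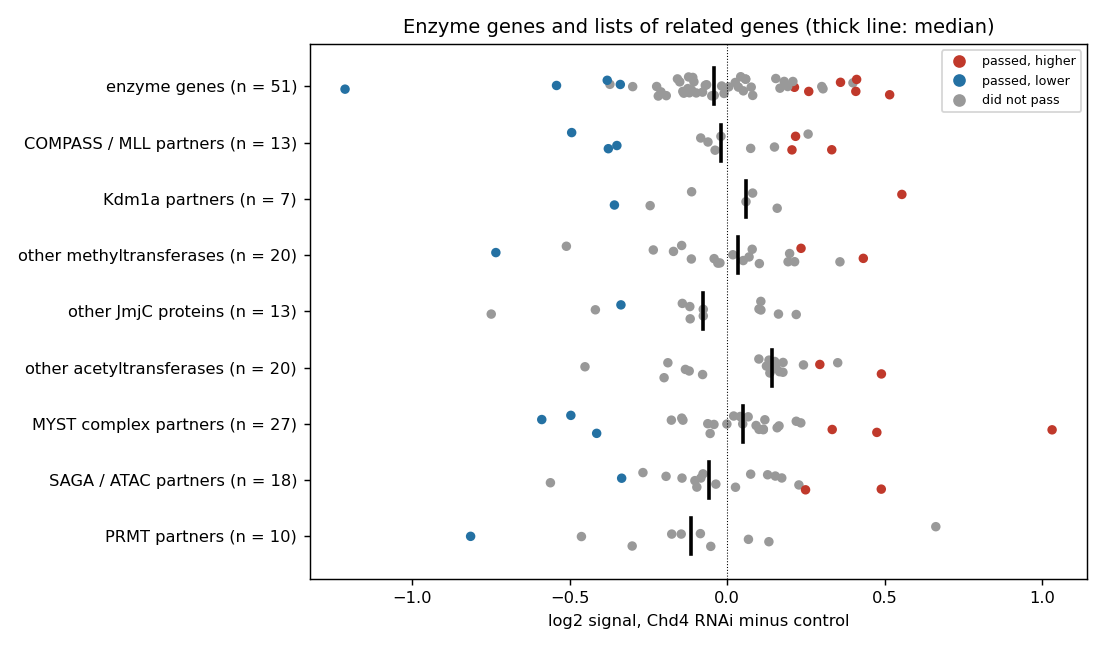
Log2 signal in Chd4 RNAi minus control cells for the 51 tested enzyme genes and for 8 lists of related genes (points, red where higher and blue where lower at an adjusted p under 0.05), with the median of each as a thick line. Medians lie between -0.12 and 0.14, and most lists hold points of both colours.

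Lists of cell type markers were measured on the same arrays, and within several of them markers moved in both directions, so their sums are given with the calls. All 12 embryonic stem cell markers were above the filter. Of these Klf2, Dppa5a and Utf1 rose and Esrrb and Klf4 fell, and the summed signals were 128838 to 131264 in Chd4 RNAi cells and 128838 to 131007 in control cells. Of 11 trophectoderm markers 8 were tested and 3 rose (Tfap2c, Krt18 and Krt7), while Cdx2, Elf5 and Gata3 lay under the filter. The other tested markers did not pass and differed in sign. Krt8 and Ascl2 had log2 differences of 0.14 and 0.65, and Tead4, Eomes and Hand1 of -0.62, -0.23 and -0.10. The sums were 5682 to 5950 in Chd4 RNAi cells and 3026 to 3042 in control cells. Tfap2c has the highest signal of the list, with means of 3074 in Chd4 RNAi cells and 1172 in control cells. Of 10 germ cell markers 9 were tested, and Dazl, Stra8, Piwil2 and Prdm1 rose. Tex101 was not tested, as its mean lay under the filter, with 114 and 90.8 in Chd4 RNAi cells, against 6.3 and 3.5 in control cells. The germ cell marker Ddx4 was 4.40-fold lower (adjusted p = 6.25e-07), and the sums were 3842 to 3869 in Chd4 RNAi cells and 3972 to 4158 in control cells.

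Of 10 feeder fibroblast markers 4 were tested, with Col1a1, Col3a1, Postn, Lum, Dcn and S100a4 under the filter. Thy1 was 3.06-fold higher (adjusted p = 3.99e-05), Fbln2 2.49-fold higher (adjusted p = 0.0336) and Vim 1.72-fold lower (adjusted p = 0.000292). Vim has the highest signal of the list, and the sums were 2448 to 2968 in Chd4 RNAi cells and 3563 to 3645 in control cells. Of 10 primitive endoderm markers 7 were tested, with Sox17, Foxa2 and Afp under the filter. Lamb1 was 1.37-fold higher (adjusted p = 0.00276) and Lama1 1.46-fold lower (adjusted p = 0.0279), and the sums were 2473 to 2598 in Chd4 RNAi cells and 2187 to 2262 in control cells. Of 9 neural ectoderm markers 4 were tested and 1 rose (Tubb3), with sums of 2088 to 2163 in Chd4 RNAi cells and 1908 to 1982 in control cells. Zic1, Neurog2, Pax3, Fabp7 and, by its mean, Sox1 lay under the filter. Sox1 had 21.3 and 5.4 in Chd4 RNAi cells, against 129 and 183 in control cells, and was not tested. Of 9 mesoderm markers 4 were tested and 0 passed in limma, with sums of 388 to 452 in Chd4 RNAi cells and 238 to 350 in control cells, while Mixl1, Hand2, Kdr, Gsc and Meox1 lay under the filter. The part of other cell types in the enzyme genes' differences was not tested.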

How the data were processed

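Arrays carry 45101 probe sets, and the deposited files give for each an intensity that is not on a log scale. The submitters' processing notes name MAS5 as the tool, and its version and scaling target are not given in the sources used here. Detection calls were not used. Arrays were grouped by their titles. The platform annotation gives 34945 probe sets a single symbol. For each gene the brightest probe set was kept, control probe sets were left out, and genes whose kept probe set lay in the top 60% of probe sets by mean log2 signal (12615 of 18193 genes) were tested without a pseudocount. The test was limma 3.58.1 in R 4.3.3 (lmFit, then eBayes), two-sided, with the variance prior following the signal, 2 residual degrees of freedom and a prior worth 9.12. Errors are standard errors of this fit unless called SD. With 2 arrays a group an exact permutation test cannot go below p = 0.333, and their number limits the precision.

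Values are given for Chd4, for the enzyme genes that passed, for 8 that did not pass with the highest mean signal, and for up to 3 related genes a list with the smallest p. Rbbp5, Rcor1 and Rcor3 were added after their values were seen. The enzyme genes and lists were chosen with earlier results of these data known. Deviations of same-numbered arrays from their group means correlated at 0.0176 across genes, and no label says that a number marks a shared culture, so arrays were not paired.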

Additional observations from a re-analysis of the deposited data

How the results depend on the processing

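With log2(signal + 16) or quantile normalization all 10 enzyme genes passed again (10 and 11 passed in all). In the top 40% of probe sets 9 of the 10 passed, and Prmt8 lay under that cut and was not tested. Without a filter and with the replicate block 9 of the 10 passed, and Kat7 did not. With the replicate block 1277 genes were higher and 983 lower. Other choices changed the counts. Without the intensity trend 293 genes were higher and 128 lower, with 0 enzyme genes in either direction. With probe sets averaged 724 and 656 genes passed, and 2 enzyme genes were higher and 2 lower. With signals floored at the median it was 407 and 284 genes and 1 and 1 enzyme genes (Kdm5b higher and Prmt8 lower). Against a 1.2-fold change it was 430 and 214 genes and 0 and 0 enzyme genes. With 1 array left out, where a lone array is assumed to vary like the others, 1075 to 1159 genes were higher and 681 to 978 lower, with 4 to 7 enzyme genes higher and 1 to 4 lower. The median of the enzyme genes, -0.041, was -0.029 in the top 40%, -0.030 with probe sets averaged and -0.062 to -0.024 with 1 array left out. In all 7 enzyme genes gained a call, each under 1 alternative (Prmt1, Kat14, Setd5, Setd3, Kmt2e, Ehmt1 and Setd1a). Signs turned for Kat6b (0.37), Prmt7 (0.21) and Kat2b (-0.030) with probe sets averaged, for Prmt5 under quantile normalization (-0.0039), for Prmt5 (-0.029) and Kat2b (-0.026) without Chd4 RNAi replicate 1, and for Prmt5 (-0.00088) without control replicate 2. Of these Kat6b alone had passed. With the arrays left out singly Prmt5 ranged from -0.029 to 0.038 and Kat2b from -0.026 to 0.077. The cause of these changes was not tested. Among the 10 genes Prmt8 alone had signals under the median used as the floor, which limits the size of its fall, though its call held with the floor.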
